A study of Mus musculus with 24 samples.

Results

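Open chromatin of corticothalamic projection neurons of the Tle4 lineage (Tle4 CThPNs) was compared between postnatal day (P) 1 and P3, using the ATAC-seq peak list of each age. A P1 peak that shared no base with a P3 peak was called lost, a P3 peak that shared no base with a P1 peak was called gained, and all other peaks were called kept. On chromosomes 1 to 19 and X the P1 list held 19508 peaks and the P3 list 22437, of 292908 peaks in the 12 lists of the series. Of the P1 peaks, 1898 were lost and 17610 were kept. Of the P3 peaks, 4949 were gained and 17488 were kept.

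ATAC-seq records accessibility through a transposase that inserts sequencing adapters into open chromatin. The series followed Cux2-lineage callosal neurons and Tle4 CThPNs at 6 ages from E18.5 (embryonic) to P48, with 24 libraries in all. Both Tle4 groups used here carried the alleles Tle4-2A-CreERT2 and Ai14. The labels give the strain as C57BL/6, and the methods of the study call the background mixed. In both, 4-hydroxytamoxifen was given to the dam during pregnancy, at 1 mg per 10 g of body weight. The groups therefore shared genotype, induction and dissected region (somatosensory and motor cortex), and differed in age, 1 or 3 days after birth. CreERT2 is driven from the Tle4 locus, so that labelled cells are those in which Tle4 was active at induction, sorted by their tdTomato fluorescence. Each library pooled animals of both sexes. There were 2 libraries at each age, and the authors called 1 list from both together, which leaves no measure of replicate spread and allows no test between the ages. Read depth is not given by the lists. All 95% intervals are Wilson intervals and cover the error of counting peaks only.

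CThPNs sit in cortical layer 6 and send axons to the thalamus. Around birth these neurons are postmitotic, extend and refine axons, and begin to form synapses. Accessible promoters are common to many cell types, whereas accessible sites far from a transcription start site (TSS) include enhancers, where neuronal transcription factors bind. An ATAC-seq peak marks accessibility and does not by itself say that a nearby gene is transcribed.

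The turnover can be read from the regions themselves. The strongest lost, gained and kept distal peaks (over 1 kb from every TSS) by fold enrichment at the summit are given here with 100 bases to each side of the summit, on the plus strand of NCBI37/mm9, 5′ to 3′. They are shown because they have the highest fold enrichment of each set, and because the lists that hold them differ. They are not typical of lost and gained peaks. By −log10 p, 98.0% of lost and 95.5% of gained peaks stood in the weaker 50% of their list. Capitals mark matches to 1 of the 16 short motifs searched, and sequences without capitals had none. The central 50 bases of each occurred 1 time on chromosomes 1 to 19 and X. Mappability and membership in repeated sequence were not tested, and the kept chr17 sequence holds an internal repeat.
Lost, chr16:57092675-57092875: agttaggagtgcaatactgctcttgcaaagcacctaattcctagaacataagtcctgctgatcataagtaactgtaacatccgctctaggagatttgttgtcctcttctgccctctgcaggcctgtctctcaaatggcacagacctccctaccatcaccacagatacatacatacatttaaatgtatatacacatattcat
Lost, chr16:93544050-93544250: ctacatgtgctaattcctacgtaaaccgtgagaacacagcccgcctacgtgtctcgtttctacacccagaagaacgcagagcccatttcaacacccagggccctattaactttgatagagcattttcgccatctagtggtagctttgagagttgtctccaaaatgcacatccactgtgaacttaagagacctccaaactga
Lost, chr13:34613628-34613828: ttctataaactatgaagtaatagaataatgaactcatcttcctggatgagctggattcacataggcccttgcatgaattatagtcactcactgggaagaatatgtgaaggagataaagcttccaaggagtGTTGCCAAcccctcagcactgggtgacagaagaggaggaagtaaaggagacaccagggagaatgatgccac
Gained, chr5:87113835-87114035: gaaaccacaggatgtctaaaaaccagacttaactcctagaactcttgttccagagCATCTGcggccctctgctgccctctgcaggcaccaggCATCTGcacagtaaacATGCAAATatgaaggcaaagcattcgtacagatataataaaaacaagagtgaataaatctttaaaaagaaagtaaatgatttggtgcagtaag
Gained, chr3:42970161-42970361: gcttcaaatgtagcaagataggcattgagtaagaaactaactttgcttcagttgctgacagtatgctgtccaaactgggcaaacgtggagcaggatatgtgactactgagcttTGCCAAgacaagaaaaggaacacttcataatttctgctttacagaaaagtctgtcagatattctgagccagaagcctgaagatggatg
Gained, chr15:71206274-71206474: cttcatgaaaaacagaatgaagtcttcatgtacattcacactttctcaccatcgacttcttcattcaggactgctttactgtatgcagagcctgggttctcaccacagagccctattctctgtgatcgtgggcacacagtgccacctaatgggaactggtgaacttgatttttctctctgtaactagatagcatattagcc
Kept, chr17:17371655-17371855: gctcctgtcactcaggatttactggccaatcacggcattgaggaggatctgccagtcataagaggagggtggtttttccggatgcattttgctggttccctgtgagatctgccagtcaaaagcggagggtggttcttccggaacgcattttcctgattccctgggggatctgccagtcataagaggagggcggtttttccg
Kept, chr3:5860559-5860759: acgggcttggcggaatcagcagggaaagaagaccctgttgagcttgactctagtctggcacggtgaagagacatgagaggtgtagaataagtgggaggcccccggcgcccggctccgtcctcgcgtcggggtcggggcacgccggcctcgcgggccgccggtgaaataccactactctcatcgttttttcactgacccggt

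All 8 regions were intergenic. The first lost region, 21.3 kb from the nearest TSS (2310005G13Rik), had a P1 fold enrichment of 15.9 and was present in 10 of the 12 lists, including Tle4 E18.5, P7, P21 and P48. The second lost region, 44.5 kb from Setd4, had a fold enrichment of 14.6 and was present in 6 lists. The third, 102 kb from Gm8223, had a fold enrichment of 14.5 and returned in the Tle4 P7 list. Its capitals are an NFI half-site that overlaps an RFX half-site. Thus the 3 lost regions with the highest fold enrichment all reappeared in a later Tle4 list.

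The first gained region, 8.55 kb from Tmprss11bnl, had a P3 fold enrichment of 15.8 and was also in the Tle4 E18.5 and P7 lists. Its capitals mark 2 NEUROD-type E-boxes and a POU octamer. The second gained region, 1424 kb from the nearest protein-coding TSS (D3Ertd751e), had a fold enrichment of 15.2 and was shared with Tle4 P7, Cux2 P7, Cux2 P21 and Cux2 P48, but with no list before P3. Its capitals are an NFI half-site on the minus strand. The third, 352 kb from Fam135b, had a fold enrichment of 15.04 and was in 10 lists. The kept regions had P1 fold enrichments of 25.0 and 24.5 and were in all 12 lists.

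The P3 peaks were wide. Their median width was 809 bp against 608 bp at P1, a ratio of 1.33, and the other 11 lists had medians of 469 to 766.5 bp. Peaks over 1000 bp made up 28.3% of the P3 list and 7.50% of the P1 list. In 17352 pairs in which 1 P1 peak met 1 P3 peak and no other, 89.9% were wider at P3, with a median ratio of widths of 1.28 (25th to 75th percentile, 1.11 to 1.56). The summits of these pairs lay a median of 21 bp apart, and 93.1% lay within 100 bp. The widening was thus present in the same regions and not only in the added ones: kept peaks had a median of 624 bp at P1 and 848 bp at P3, lost peaks 450.5 bp and gained peaks 664 bp.

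**Figure D1:**
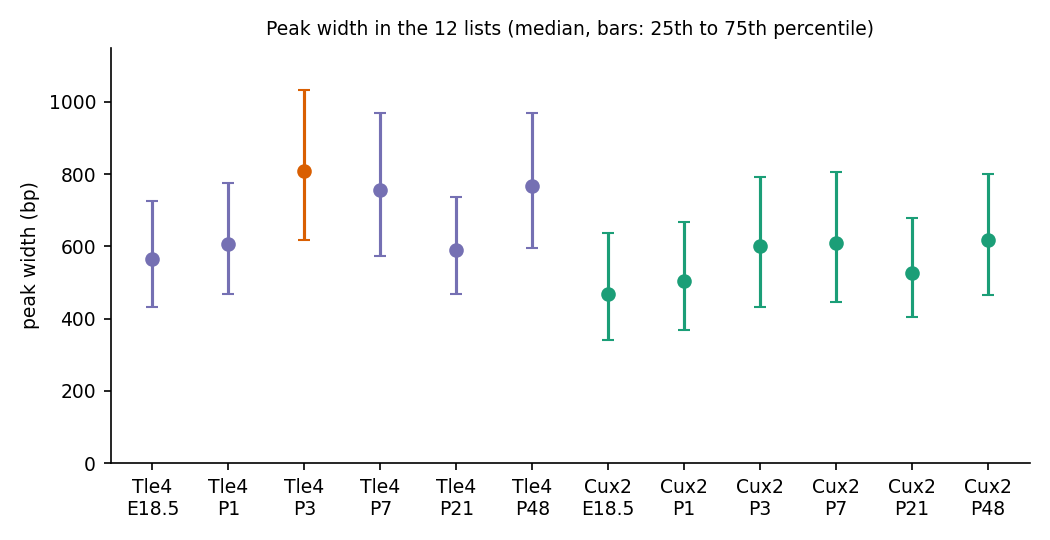
Width of the peaks in bp (y axis) in each of the 12 lists (x axis, class and age), with the median as a point and the 25th to 75th percentile as a bar. The Tle4 P3 list, in orange, has the highest median, 809 bp, beside 608 bp for Tle4 P1.

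The width had a small effect on which peaks were called lost or gained. Every pair of overlapping peaks shared at least 55.9% of the shorter peak, so that none met by its edge alone. With each P3 peak narrowed about its summit by the ratio of the median widths, 1899 P1 peaks were lost (9.73%) and 4949 P3 peaks were gained, as against 1898 (9.73%) and 4949 at full width. When both lists were set to 500 bp windows centred on the summits, 10.6% of P1 peaks were lost and 22.3% of P3 peaks gained. The clearest effect was on covered sequence. The P3 list covered 18.99 Mb and the P1 list 12.5 Mb, and 90.1% of the P1 bases lay inside P3 peaks whereas 59.2% of the P3 bases lay inside P1 peaks. Wide P3 peaks seldom joined neighbours, since 126 of them met more than 1 P1 peak. Few calls were near misses, as 3.00% of lost peaks lay within 1 kb of a P3 peak and 2.32% of gained peaks within 1 kb of a P1 peak.

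The larger dependence was on the length and threshold of the lists. Lost peaks made up 9.73% of the P1 list (95% interval, 9.32 to 10.2%) and gained peaks 22.1% of the P3 list (21.5 to 22.6%). Gained peaks outnumbered lost peaks by 3051, and the P3 list was longer than the P1 list by 2929 peaks. Since nearly all kept peaks paired 1 to 1, these differences are bound to be close, and the excess of gain restates the length of the lists. With the P3 list cut to the 19508 peaks of highest −log10 p, the shares were 15.1% lost and 15.7% gained, values that equal lengths force close together. The weakest P1 peak had a −log10 p of 17.4 and the weakest P3 peak 22.0. When P1 peaks under the P3 limit were left out, 14510 P1 peaks remained while the P3 list stayed whole, so that the lost share had to fall, to 3.18%, and the gained share to rise, to 37.6%. Accessibility, depth and peak calling cannot be told apart as sources of the difference in length.

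**Figure D2:**
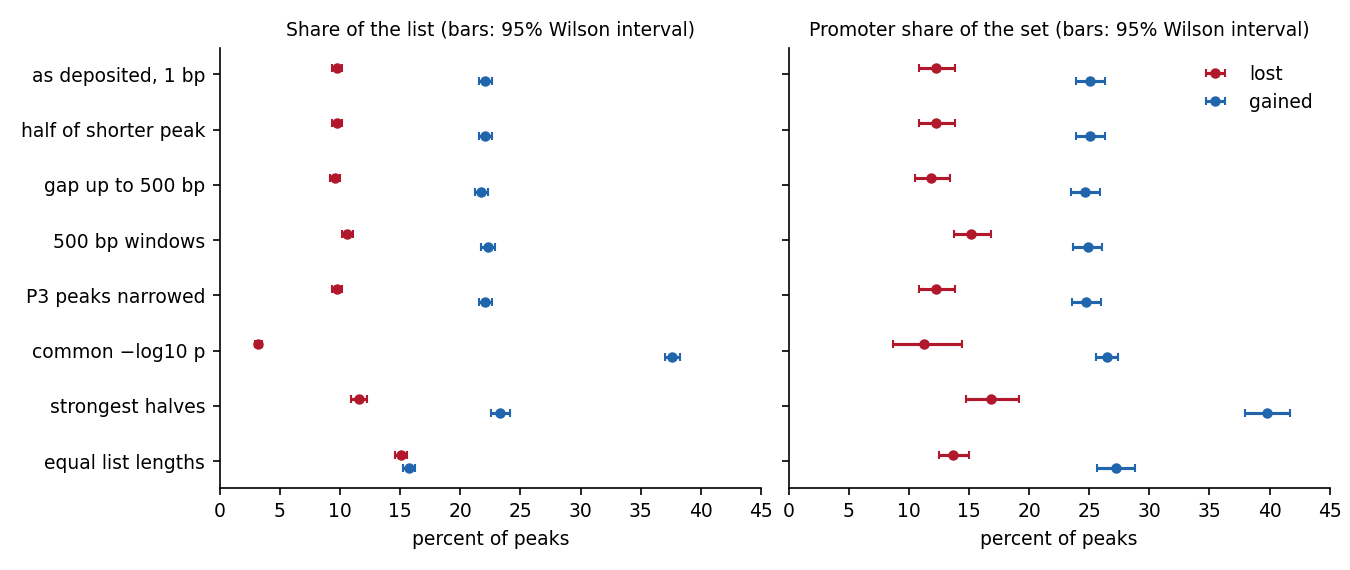
Percent of peaks lost (red, of the P1 list) or gained (blue, of the P3 list) at left, and the percent of each set that lay at promoters at right (x axes), under 8 ways of comparing the lists (y axis), with 95% Wilson intervals. Lost and gained shares stand at 9.73% and 22.1% as deposited and at 15.1% and 15.7% with lists of equal length, which force the shares together, while the promoter share is higher in gained than in lost peaks in each case.

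Lost and gained peaks were mainly the weak ones of their lists. By −log10 p, 98.0% of lost peaks stood in the weaker 50% of the P1 list and 95.5% of gained peaks in the weaker 50% of the P3 list. Each list was cut into 10 bins of equal size, bin 1 being the weakest. At P1, 37.2% of bin 1 was lost, 1.54% of bin 6 and none of bins 8, 9 and 10. At P3, 65.8% of bin 1 was gained, 7.26% of bin 6 and none of bins 9 and 10. The median fold enrichment was 9.21 in lost peaks and 11.04 in kept peaks at P1, and 8.79 in gained and 10.1 in kept peaks at P3. In the pairs above, 77.3% had the lower fold enrichment at P3.

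Over whole lists, the promoter share was lowest in lost peaks, higher in gained peaks and highest in kept peaks. A promoter peak lay within 1 kb of a TSS, and other peaks were placed by overlap with an exon, with an intron or with neither. Promoters made up 12.3% of lost peaks (10.9 to 13.8%, 233 peaks), 25.1% of gained peaks (23.9 to 26.3%, 1242 peaks) and 41.8% of kept P1 peaks (41.1 to 42.6%). Introns held 35.9% of lost, 25.8% of gained and 21.4% of kept P1 peaks, and intergenic sequence 48.1%, 44.9% and 33.9%. Exons outside promoters held 3.79%, 4.24% and 2.84%. The intervals for promoters and introns did not overlap between the 3 sets. Kept peaks were stronger, however. The weaker part of each list held 98.0% of lost and 95.5% of gained peaks, but 44.8% of kept P1 peaks. In that part, kept P1 peaks numbered 2290 at promoters and 5604 distal, gained peaks 1163 and 3562, and lost peaks 230 and 1630. The order thus held among weaker peaks, but most of the gap in promoter share between gained and kept peaks was gone.

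Seen from each list, 3.06% of the 7602 P1 promoter peaks were lost, against 15.3% of intron and 13.2% of intergenic peaks. At P3, 14.5% of the 8593 promoter peaks were gained, against 25.9% of intron and 27.3% of intergenic peaks. The promoter share was higher in gained than in lost peaks under each of 10 alternatives, although the values moved: with 500 bp windows it was 15.2% in lost and 24.9% in gained peaks. Lost peaks lay a median of 26.0 kb from a TSS, gained peaks 16.5 kb and kept P1 peaks 6.48 kb. The median GC content of the 150 bases to each side of the summit was 44.5% in lost, 47.2% in gained and 50.2% in kept P1 peaks. Among distal peaks it was 43.9%, 44.5% and 44.2%.

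**Figure D3:**
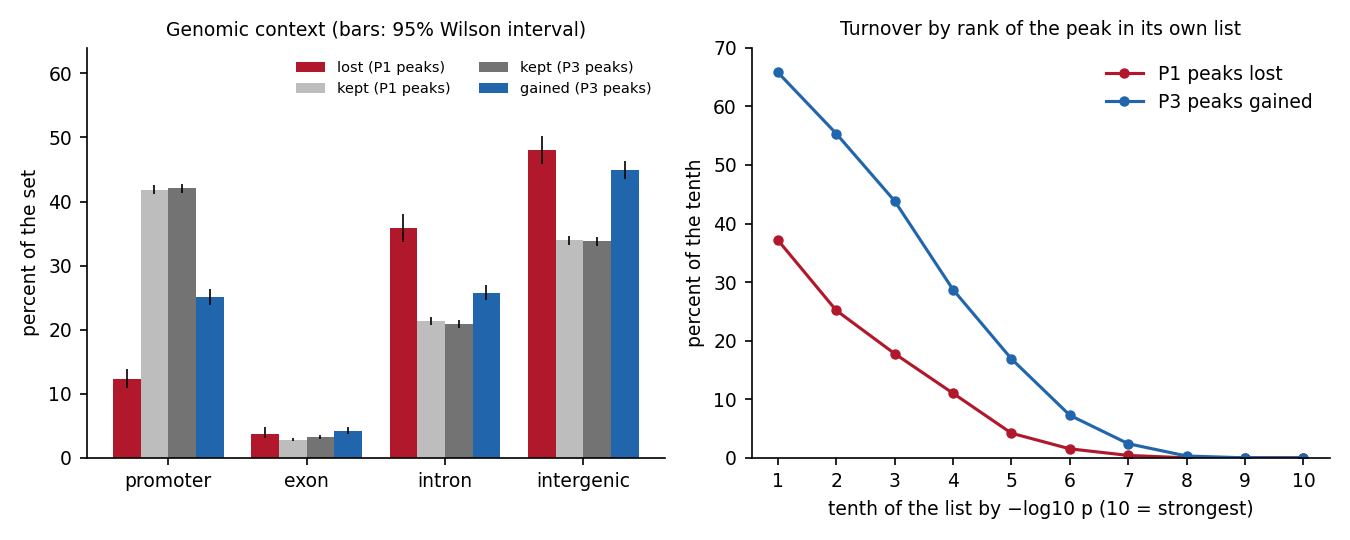
Left, percent of each set (y axis) that lay in a promoter, exon, intron or intergenic sequence (x axis), with 95% Wilson intervals; promoters held 12.3% of lost and 41.8% of kept P1 peaks. Right, percent of peaks lost or gained (y axis) in each of 10 bins of the list by −log10 p (x axis, 10 = strongest), which falls from 37.2% and 65.8% in the weakest bin to 0 in the strongest.

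The ages on either side of the interval differed between the sets. The Tle4 E18.5 list held 43.9% of lost peaks (41.7 to 46.1%), 30.2% of gained peaks (29.0 to 31.5%) and 82.2% of kept P1 peaks. The Tle4 P7 list held 14.8% of lost peaks (13.3 to 16.5%), 30.3% of gained peaks (29.0 to 31.6%) and 65.6% of kept P1 peaks. Lost peaks were thus more often seen before the interval than after it, while gained peaks were seen as often on either side. These lists differed in length, with 19716 peaks at E18.5 and 15182 at P7. The equal shares of gained peaks depended on the threshold: with the common limit on −log10 p in the lists, 11.01% of gained peaks were in Tle4 E18.5 and 22.8% in Tle4 P7, against 20.996% and 10.2% of lost peaks. This limit redefined the sets, to 8446 gained and 462 lost peaks. It also shortened the E18.5 list, whose weakest peak had a −log10 p of 14.5. As deposited, the shares in the Tle4 P21 and P48 lists were 3.16% and 8.85% of lost peaks and 6.75% and 15.6% of gained peaks.

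Following each peak through both neighbours, 705 lost peaks (37.1%) were in the E18.5 list and not in the P7 list. Conversely, 1051 gained peaks (21.2%) were absent at E18.5 and present at P7. In this latter group 14.7% were promoter peaks (12.7 to 17.0%), whereas promoters made up 29.1% (26.5 to 32.0%) of the 1047 gained peaks that were present at E18.5 and absent at P7. For 912 lost peaks (48.1%) and 2402 gained peaks (48.5%) neither neighbour held the region. No other list of the series held 362 lost peaks (19.1%) and 743 gained peaks (15.01%). These pattern groups were formed after the values were seen.

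Many of the changing regions were also open in the other neuron class. At least 1 Cux2 list held 62.2% of lost, 71.8% of gained and 82.9% of kept P1 peaks. Of the gained peaks, 15.3% were present in Cux2 P3 and absent from Cux2 P1, and 3.48% the reverse. Of the lost peaks, 10.9% were present in Cux2 P3 and absent from Cux2 P1, and 3.79% the reverse. The Cux2 P3 list is the longer of these, with 29298 peaks against 21747.

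**Figure D4:**
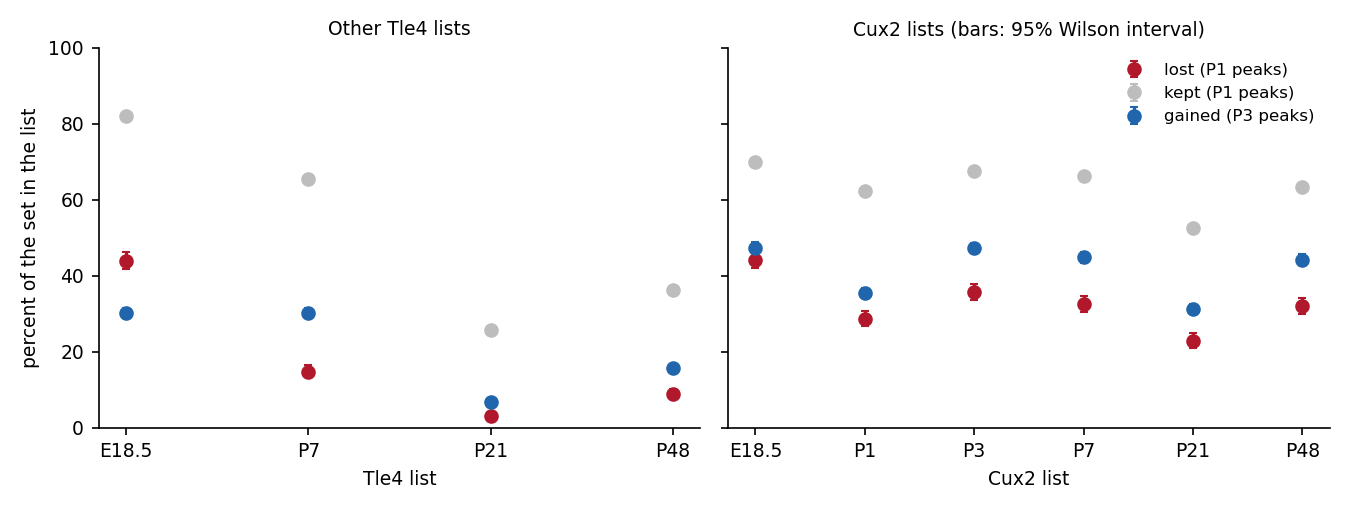
Percent of lost, kept and gained peaks (y axis) that met a peak of each other Tle4 list (left) or of each Cux2 list (right), by age (x axis), with 95% Wilson intervals. Lost peaks go from 43.9% in Tle4 E18.5 to 14.8% in Tle4 P7, whereas gained peaks stand at 30.2% and 30.3%.

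Beside the other steps between neighbouring ages, this one had the smallest loss. In the other 9 steps of both classes 12.3 to 69.2% of peaks were lost, with a median of 30.1%, against 9.73% here. With 500 bp windows the values were 12.98 to 69.4% against 10.6%. The P3 list is longer than the P1 list, which lowers the lost share. With the lists of each step cut to equal length, an alternative chosen after seeing the data, 15.1% were lost here and 21.8 to 57.2% in the other 9 steps. The gained share of 22.1% stood above 3 of the other 9 steps (12.6 to 59.8%). At equal length it was 15.7%, below all the other 9 steps (22.0 to 57.1%). The promoter share of the gained peaks, 25.1%, was above those of all the other 9 steps (5.99 to 24.4%), and the ratio of median widths, 1.33, was also above all of them (0.779 to 1.30). The first rank is nearly a tie, since the 24.4% of Tle4 P21 to P48 lies inside the interval here (23.9 to 26.3%). With promoters placed by the summit the share here was 24.0%, a value not computed for the other steps. With 1 list at each age these orders are descriptions.

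Genes were examined first by their promoters. Of 22350 protein-coding genes, 7779 (34.8%) had a promoter peak at both ages. Another 190 had one at P1 only (0.85% of all genes) and 1155 at P3 only (5.17%). With lists of equal length these were 332 and 801 genes. The gene lists held 302 genes that could be matched, of which 91 had a promoter peak at both ages, 5 at P1 only, 27 at P3 only and 179 at neither. Taken over genes with a promoter peak at either age, P3-only genes were 22.0% in the lists and 12.7% among all genes. With lists of equal length they were 15.04% and 9.13%, and P1-only genes 9.73% and 3.79%. These shares are given as a description, without a test. Of the 27 P3-only genes, 26 kept that status with 500 bp windows and 17 with lists of equal length.

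Among 19 genes of CThPN and deep-layer identity, 6 had a promoter peak at both ages, 1 at P1 only and 2 at P3 only. The shares over all genes were 34.8%, 0.85% and 5.17%. Tle4 itself, a Groucho-family corepressor that names the lineage, had a promoter fold enrichment of 11.1 at P1 and 10.3 at P3. Tbr1, a T-box factor that specifies layer 6 neurons, had 7.15 and 5.60, and Foxp2, a forkhead factor of deep layers, 7.07 and 4.98. A lower value at P3 was common, seen in 81 of the 91 genes of all gene lists with promoter peaks at both ages. The −log10 p rose instead, from 34.9 to 41.4 at Tbr1 and from 26.0 to 27.9 at Foxp2. Of the 19 identity genes, 10, among them Sox5, Ntsr1 and Fezf2, had no promoter peak at either age. Promoter peaks did not separate the classes, since Foxp2 had one in Cux2 lists at E18.5, P3 and P7, Tbr1 in those at E18.5 and P7, and Tle4 in all 12 lists, with fold enrichments of 13.3 to 17.1 in Cux2 lists. Fezf2 had no promoter peak in any list, although 7 P1 peaks assigned to it were kept.

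Bcl11b (Ctip2), a zinc-finger factor of subcerebral and corticothalamic neurons, had a promoter peak of fold enrichment 6.80 at P1 and none at P3. This peak, chr12:109242231-109242522, was the only one at its promoter in the Tle4 lists, and Cux2 lists from E18.5 to P7 held a Bcl11b promoter peak too. With the common limit on −log10 p it was absent at both ages. Rprm, a marker of layer 6 CThPNs, gained a promoter peak of fold enrichment 5.31 at P3 together with distal peaks 24.3 and 77.5 kb from its TSS. Both distal regions were in the Tle4 P7 list, and the farther one was in the Tle4 E18.5 list too. Zfpm2, a cofactor of GATA factors, had a promoter fold enrichment of 5.33 at P3 and 7.95 at E18.5 with none at P1. With lists of equal length neither Rprm nor Zfpm2 had a promoter peak at P3.

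Distal peaks changed at other identity genes. Tle4 lost 1 peak, chr19:14490171-14490795, 37.6 kb from its TSS, with a fold enrichment of 8.68 at P1, and this region was otherwise seen only in Tle4 E18.5. It kept 7 other peaks. Sox5, which controls the sequence of deep-layer neuron fates, lost a peak 33.1 kb from its nearest TSS (fold enrichment 11.1) and gained an intronic one 29.8 kb from a TSS (11.3), which of the other lists only Tle4 P7 held. Ntsr1, the neurotensin receptor used as a CThPN marker, lost an intronic peak of fold enrichment 7.56 that lay 1.18 kb from its TSS. Lmo3 gained 2 intronic peaks with fold enrichments of 9.65 and 11.3.

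Subplate and layer 6b genes (8 matched) had 1 change each way, where 0.85% of all genes had a promoter peak at P1 only and 5.17% at P3 only. Drd1a, the dopamine D1 receptor gene, had a promoter peak of fold enrichment 7.78 at P1, and no other list held one. With the common limit on −log10 p it was absent at both ages. Kcnab1, a potassium channel subunit, had a promoter fold enrichment of 7.09 at P3 and 8.03 at P7, but kept this status only under the common limit on −log10 p among 4 alternatives. Of 16 genes of callosal and upper-layer identity, 4 had promoter peaks at both ages, where 34.8% of all genes did. Pou3f2 (Brn2), a POU factor of upper-layer neurons, had promoter fold enrichments of 8.07 at E18.5 and 7.73 at P1 and no peak from P3 on in Tle4 CThPNs. Cux2 lists held its promoter from E18.5 to P7 and at P48. The P1-only status of Pou3f2 held with 500 bp windows, lists of equal length, the common limit on −log10 p and promoters within 500 bp. Mef2c, an activity-dependent MADS-box factor, had a promoter peak at P3 (4.81) and otherwise only in Cux2 P3 (5.53), and this status also held under all 4.

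Neuronal transcription factors (30 matched) included Bcl11b and Mef2c and 3 more genes with 1-sided promoters. Meis2, a homeodomain factor, had a promoter fold enrichment of 6.54 at P1 and 5.46 at E18.5 and none from P3 on. Mef2a, a relative of Mef2c, appeared at P3 (7.63). Tcf4, the E-protein partner of proneural factors, appeared at P3 (6.21), though not with lists of equal length, with 2 further gained intronic peaks, 62.4 and 43.6 kb from a TSS. The second of these stayed in every later Tle4 list and in no Cux2 list. Among genes of the immature neuron and cytoskeleton (18), 12 had promoter peaks at both ages, where 34.8% of all genes did. Mapt, encoding tau, had one at P1 only (6.46), a status lost with the common limit on −log10 p and with promoters within 500 bp, and Marcks, an actin-linked membrane protein, at P3 (4.03) and E18.5 (5.47) but not at P1. Gap43, a growth-cone protein, gained 3 distal peaks with fold enrichments of 7.37 to 9.78.

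Of 20 activity-regulated genes, 15 had a promoter peak at both ages and 3 at P3 only, where 34.8% and 5.17% of all genes did. Arc, which regulates AMPA receptor trafficking, went from no promoter peak at E18.5 and P1 to a fold enrichment of 7.33 at P3 and 7.01 at P7. Nr4a1, an immediate-early nuclear receptor, followed the same course with 9.21 at P3 and 8.62 at P7. Egr3, an immediate-early zinc-finger factor, had 5.80 at P3 and 8.01 at P7 and remained at P21 and P48. All 3 kept their P3-only status under all 4 alternatives. All 3 promoters were already present in Cux2 CPNs at E18.5 and P1. Fos lost 2 distal peaks, 11.2 and 13.2 kb from its TSS, and gained a second peak at its promoter, where another peak was kept. Egr3 also lost a peak, 2.44 kb from its TSS.

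Genes of synapses, receptors and channels were next. Over all genes 34.8% had a promoter peak at both ages, 5.17% at P3 only and 0.85% at P1 only. At the last share, lists this short need hold no such gene. No gene of these lists had a promoter peak at P1 only. Shank1 and Lrrtm3 did with lists of equal length. Of 28 synapse genes, 18 were open at both ages and 3 at P3 only. Nlgn3, a postsynaptic adhesion protein, had a fold enrichment of 8.82 at P3 and was in no other Tle4 list, while Cux2 lists held it from P3 on. Syt4, a synaptotagmin, had 6.71 at P3, and of the other Tle4 lists those at E18.5 and P7 held this peak. Of 27 glutamate and GABA receptor genes, 9 were open at both ages and 3 at P3 only. Among these were Grin3a (8.46), an NMDA receptor subunit, and Gabra3 (8.08), a GABA-A receptor subunit, which had no promoter peak at P3 with lists of equal length. Of 25 voltage-gated channel genes, 4 were open at both ages and 4 at P3 only. Among the latter were the sodium channels Scn2a1 (6.63) and Scn3a (6.99) and the potassium channel Kcna1 (7.53). Scn3a and Kcna1 also had a promoter peak at E18.5, and Scn2a1 did not. Neither sodium channel kept its P3-only status with lists of equal length, which left 2 such channel genes.

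Axon guidance genes were counted in the same way, beside shares over all genes of 34.8% at both ages and 5.17% at P3 only. Of 26 receptor genes, 7 were open at both ages and 3 at P3 only, namely Robo1 (6.36), a Slit receptor, Unc5d (6.63), a netrin receptor, and the adhesion protein Cntn2 (6.91). With lists of equal length Robo1 and Unc5d had no promoter peak at P3, and Plxna2 had one at P1 only. Of 24 ligand genes, 6 were open at both ages and 3 at P3 only, all semaphorins: Sema3a (7.54), Sema4d (7.72) and Sema6a (7.95). The semaphorin promoters were all present at E18.5 and absent at P1. The ligand genes Slit3 and Sema7a had one at P1 only with lists of equal length, and Sema6a lost its status with promoters within 500 bp. Over all lists, 12 of the 27 P3-only genes had a promoter peak in Tle4 E18.5, 9 had one in Tle4 P7, and 9 had one in no Tle4 list other than P3. All 27 had a promoter peak in at least 1 Cux2 list.

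Few markers of other cells had a promoter peak in either list, where 9124 of 22350 protein-coding genes had one at either age. Of kept P1 peaks, 9 were assigned to interneuron, 6 to oligodendrocyte, 5 to astrocyte and 4 to endothelial and mural markers. Progenitor markers had 3 and microglia markers 1. No promoter peak was found at either age for 12 astrocyte, 10 oligodendrocyte, 10 microglia or 10 endothelial and mural markers. Of 15 interneuron markers, Prox1 and Adarb2 had promoter peaks at both ages, and Gad1, Gad2, Dlx1, Dlx2, Lhx6 and Slc32a1 had none. Of 11 progenitor markers, Top2a was open in all 12 lists, and Vim, an intermediate filament of radial glia, had a promoter fold enrichment of 10.2 at E18.5 and 6.67 at P3 with none at P1, and at equal length none at P3 either. Distal gain was nevertheless seen near some glial genes. Slc1a3, the glutamate transporter GLAST, had 3 gained peaks and 1 lost peak, and Aqp4, Slc1a2, Sox9 and Nfix had 1 gained peak each. A part of other cells in these distal peaks was not tested.

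By the nearest protein-coding TSS within 100 kb, 1313 lost peaks were assigned to 1189 genes (5.32% of all genes) and 3792 gained peaks to 3242 genes (14.5%), with 329 genes in both groups. In the lists, 15.9% of the genes had a lost peak and 32.1% a gained peak. Gained peaks were assigned to 12 of 28 synapse genes, 11 of 27 receptor genes and 10 of 25 channel genes, and to 8 of 30 neuronal transcription factors. They were also assigned to 5 of 12 astrocyte, 3 of 10 endothelial and mural, 3 of 11 progenitor, 2 of 15 interneuron, 1 of 10 oligodendrocyte and 0 of 10 microglia markers. The lists contain many long genes with wide flanks, whose part in these counts was not tested.

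The 5 genes with the most lost peaks had 4 each. Dlg2, a postsynaptic scaffold protein (PSD-93), lost 4 peaks, gained 2 and kept 13. The others were Chsy3, which makes chondroitin sulfate, Phactr1, an actin and phosphatase regulator, the protocadherin Fat3 and the Rac activator Tiam2. Among these Tiam2 also had a P1-only promoter peak (7.87). The 5 genes with the most gained peaks were Pde4d, a cAMP phosphodiesterase, Frmd4a and Gramd1b with 5 each, and Tiam1, a Rac activator, and Pex3, a peroxisome assembly factor, with 4 each. Pde4d had its promoter peak in all 12 lists, kept 10 peaks and lost 2. Pex3 went from no promoter peak at P1 to a fold enrichment of 9.64 at P3, and it was held by every later Tle4 list.

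The strongest lost promoter peak was at Cops6, a subunit of the COP9 signalosome, chr5:138602088-138602726, with a fold enrichment of 13.3 and a summit 0.049 kb from the TSS. It was in no other Tle4 list. The next 4 were near AC107641.2, Capn3, Zfp109 and Gm7103, with 11.6 to 12.6. The strongest gained promoter peaks were at Lipo1, chr19:33664039-33664404 (15.04), Fam175b (14.1), Gm3248 (13.8), Mfap1b (13.3) and Dnmt3b (13.3), the last encoding a de novo DNA methyltransferase. The Dnmt3b peak, chr2:153494547-153494910, lay in 8 lists and was absent from Tle4 P1. The strongest kept promoter peaks reached 28.8 (Spc25), 28.3 (Mcm3) and 28.0 (Nusap1), and all 5 of them were in all 12 lists.

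After the 3 lost distal peaks with printed sequence, the next in fold enrichment lay in an intron of Gm5665 and 14.7 kb from D14Abb1e, each with a fold enrichment of 14.5. The next gained one lay 51.0 kb from Ngfrap1 on chromosome X (14.5). Another, chr16:63038043-63038426, lay 117 kb from Pros1 with a fold enrichment of 14.4, and of all 12 lists only Tle4 P3 and P7 held it.

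Short sequence motifs were counted on both strands in the 150 bases to each side of the summit. The NFI half-site (TTGGCA), bound by nuclear factor I proteins, was found in 32.1% of distal lost windows (29.9 to 34.4%), 28.7% of distal kept P1 windows (27.9 to 29.6%) and 23.6% of distal gained windows (22.3 to 25.0%). Over the distal windows of both lists together it was found in 28.0%. The same order held in the weaker 50% of each list (31.8, 28.6 and 23.6%), with lists of equal length (30.8, 28.8 and 22.4%) and with 500 bp windows defining the sets (31.8, 28.8 and 23.7%), alternatives that were chosen after seeing the data. In each of these alternatives the lost and kept intervals overlapped, while the gained interval stayed below both. Some NFI matches overlap the RFX half-site (GTTGCCA), which was found in 6.79%, 7.15% and 7.31% of the same windows.

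The NEUROD-type E-box (CAGATG), bound by proneural basic helix-loop-helix factors, followed the same order, with 34.0% (31.8 to 36.3%) of distal lost, 31.7% (30.8 to 32.6%) of distal kept and 28.7% (27.3 to 30.2%) of distal gained windows, and 31.2% over both lists. The lost and kept intervals overlapped. The CTCF core (AGGGGGC), which can also overlap GC-rich motifs, was found in 4.08% (3.23 to 5.15%), 3.92% (3.56 to 4.31%) and 5.66% (4.97 to 6.46%), and in 4.16% over both lists. Of 16 motifs, 2 had separate intervals between distal lost and distal gained windows, 3 between distal gained and kept, and 2 between distal lost and kept. The last count includes the NFI half-site, whose lost and kept intervals overlapped in each alternative given for it.

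At promoters, the ETS motif (CCGGAAGT), common in housekeeping promoters, was found in 4.29% (2.35 to 7.72%) of lost, 4.83% (3.77 to 6.17%) of gained and 10.1% (9.40 to 10.8%) of kept P1 windows, and in 9.54% of promoter windows of both lists. In the weaker 50% of each list the kept share was 8.69% and the gained share 4.64%. The YY1 motif (AAGATGGC) was found in 4.19% (3.21 to 5.45%) of gained and 6.39% (5.86 to 6.97%) of kept promoter windows, and in 6.24% over both lists. In the weaker 50% of each list the YY1 intervals overlapped, with 3.96% (2.98 to 5.24%) of gained and 5.28% (4.44 to 6.28%) of kept windows. The AP-1 motif (TGANTCA), bound by Fos and Jun dimers, was found in 10.3% (7.02 to 14.9%) of lost, 4.35% (3.35 to 5.63%) of gained and 3.72% (3.31 to 4.17%) of kept promoter windows, and in 3.83% over both lists. The SP/KLF motif (GGGCGGG) was found in 36.9%, 46.6% and 49.9% of these windows, and in 49.7% over both lists. The lost promoter peaks were fewer (233) and had a median GC content of 58.1%, against 63.8% in gained and 62.5% in kept promoter peaks, and the part of GC content in these shares was not tested.

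**Figure D5:**
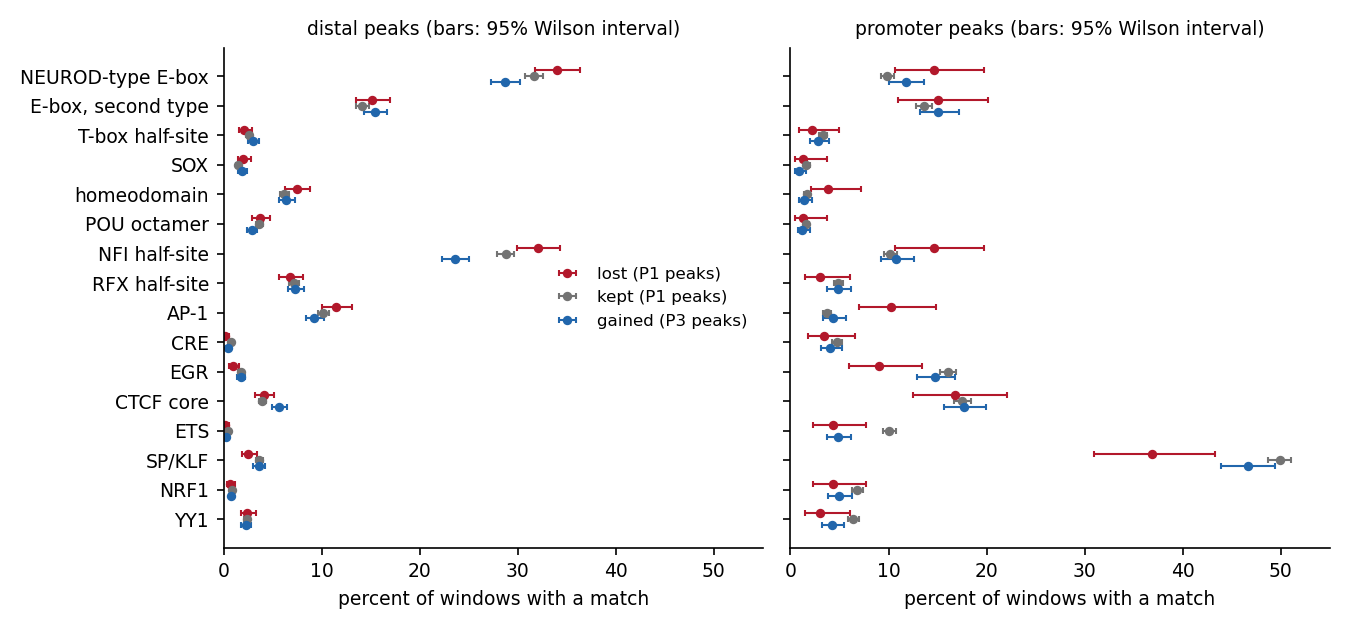
Percent of windows with at least 1 match (x axes) for each of 16 motifs (y axis) in distal peaks (left) and promoter peaks (right) of the lost, kept and gained sets, with 95% Wilson intervals. NFI half-sites are found in 32.1, 28.7 and 23.6% of distal lost, kept and gained windows, and ETS matches in 10.1% of kept and 4.83% of gained promoter windows.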

How the data were processed

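ATAC-seq peak lists of Tle4 CThPNs at P1 and P3 were analysed. By the methods of the study, the authors mapped reads to NCBI37/mm9 (Bowtie2), discarded duplicates (Picard), made peak calls with MACS2 and filtered these by irreproducible discovery rate across replicates. Peak names show that both libraries of an age were pooled. A shift for the transposase is not given in the sources used here. For each peak the deposited lists give a fold enrichment (a ratio to local background, taken at the summit) and the −log10 p of the authors' peak caller, without read counts. No depth, and hence no depth-based limit, could be computed.

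Peaks on chromosomes 1 to 19 and X were used (19508 of 19514 at P1, 22437 of 22443 at P3). Sets were defined by an overlap of at least 1 bp. Context and genes came from GENCODE vM1, the annotation of the same assembly (86916 TSSs), promoters being within 1 kb of a TSS. One P3 peak ended 61342439 on chromosome 19, past the reference end of 61342430. Where several genes bore a name the longest protein-coding one was used, and 4 listed names were not matched. Named were genes of the fixed lists with a promoter peak at 1 age only (up to 6 a list), the 5 genes with the most lost and most gained peaks, and the 5 peaks of highest fold enrichment per set and kind. Other members of the lists, and distal peaks assigned to them, were chosen after their values were seen. Some genes that the rule names are not reported here. The members, lists and motifs were chosen with earlier results of these data known. Printed sequence was read from the NCBIM37 genome. With 1 list an age there was no test, and shares carry 95% Wilson intervals. Overlap calls were tested on simulated peaks. Analyses used Python 3.11.15, numpy 2.4.6 and scipy 1.17.1. Alternatives were a stricter or looser overlap, fixed and narrowed widths, a common −log10 p, the stronger 50% of each list, equal list lengths and other promoter definitions.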

Additional observations from a re-analysis of the deposited data

How the results depend on the processing

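A value was counted as moved when it left the 95% interval of the value as reported. With 500 bp windows the lost share was 10.6% and the promoter share of lost peaks 15.2%. The common −log10 p shortens the P1 list and not the P3 list. With it 3.18% of P1 peaks were lost and 37.6% of P3 peaks gained, and promoters made up 26.5% of the gained peaks. In the stronger 50% of each list 11.6% were lost and 23.3% gained, with promoter shares of 16.8% and 39.8%. With lists of equal length 15.1% were lost and 15.7% gained, and the promoter share of gained peaks was 27.2%. Promoters within 500 bp of a TSS made up 10.3% of lost and 23.5% of gained peaks, and promoters of protein-coding genes alone 23.6% of gained peaks. The gained share exceeded the lost share in all 7 alternatives for these shares. At equal length the shares are forced close together, and in the other alternatives the order follows the lengths of the lists. This order is no support for a net gain. Overlap of 50% of the shorter peak, a gap of up to 500 bp, narrowed P3 peaks and context by the summit (added after seeing the data) left all 4 shares, where computed, inside their intervals. Genes with a promoter peak at P1 only ranged from 40 (common −log10 p) to 332 (equal length) and at P3 only from 801 to 2099. With the common −log10 p, 20.996% of lost and 11.01% of gained peaks were in Tle4 E18.5, and 10.2% and 22.8% in Tle4 P7. That limit shortened the E18.5 list too and redefined the sets. The causes of these movements were not tested. Replicate error, depth and the leaving out of a replicate are not accessible from lists made of both replicates. No paired analysis was possible because each list was made from both replicates together.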

Other observations

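Loss and gain were spread over all chromosomes. Between 7.43% (chromosome 17) and 11.9% (chromosome 15) of P1 peaks were lost on each chromosome, and between 18.6% (chromosome 7) and 24.0% (chromosome 13) of P3 peaks were gained. Chromosome X, with 48 lost and 140 gained peaks, stood at 9.56% and 23.8%.

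Among gained peaks the promoter share rose with the strength of the peak, from 21.5% in the weakest of 10 equal bins of the P3 list to 42.6% of the 54 gained peaks in bin 7. Among lost peaks no such order was seen, with 13.2% in the weakest bin and 9.76% of the 82 lost peaks in bin 5. Peak width rose with rank in both lists, from a median of 491 bp in the weakest bin to 700 bp in the strongest bin at P1, and from 647 bp to 938 bp at P3, so that P3 peaks were wider in each of the 10 bins.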
